A study of Mus musculus with 8 samples.

Results

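Pmp22, Mbp, Pmp2, Mag, Prx, Drp2, Gjb1 and Egr2, 8 genes that Schwann cells use to build and keep peripheral myelin, were followed in the cochlea of wild-type and Opa1+/- mice. They were taken by gene symbol from the count tables, where they are 8 of 47502 distinct symbols, and all 8 were among the 19366 genes with enough counts to be tested. RNA was sequenced from the cochleae of 4 WT and 4 Opa1+/- mice, untreated and 21 days old. The Opa1+/- mice carry 1 knock-in allele of Opa1 (delTTAG, a short deletion in the coding sequence) on a mixed C57BL/6J and 129Sv/Pas background, and the WT mice were their littermates. Opa1 codes for a dynamin-like GTPase of the inner mitochondrial membrane. The allele is carried by every cell of the animal, and the homozygous state is lethal before birth, so that the heterozygote is the only adult form. Each library is 1 mouse, named here as the labels name it (WT_4, WT_5, WT_6 and WT_8 for wild type, Het_2, Het_7, Het_484 and Het_491 for Opa1+/-).

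Myelin is the membrane that glia wrap around axons. In the auditory nerve, Schwann cells myelinate the part that lies in the cochlea, and oligodendrocytes take over towards the brainstem. Compact myelin is held together by proteins such as PMP22 and the myelin basic proteins, while the non-compact parts carry adhesion proteins, gap junctions and links to the basal lamina. Egr2 codes for the transcription factor that, with SOX10, drives the myelin program of Schwann cells. Mbp, Mag and Gjb1 are also used by oligodendrocytes, whereas Prx and Drp2, as genes of myelin, belong to Schwann cells. Cells other than glia can also add to the levels of these genes in whole tissue.

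The whole cochlea was sequenced, so fewer cells of a type and less RNA per cell cannot be told apart in any value below. Counts on named genes ran from 15978051 to 20828030 per library. Levels are given in CPM, counts brought to a common library size, after scaling by TMM, which corrects libraries for differences in composition, and the scaling factors lay between 0.948 and 1.06. Opa1, the mutated gene, lay between 112 and 126 CPM in the WT mice and between 60.4 and 70.02 CPM in the Opa1+/- mice. Xist had at most 8 counts in any library and the Y-linked Ddx3y at least 55.7 CPM in every library, so all 8 libraries had a male pattern, and the X-linked Drp2 and Gjb1 were compared between mice of 1 sex.

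The sequence just before the RefSeq start of transcription is shown for the 4 genes in which letters of a binding motif were found, since Egr2 is both a member of the group and the factor whose motif was searched. RefSeq promoters (GRCm38.p6) were looked up for 7 of the genes and found for 5. In the 250 bases before the RefSeq start, both strands were searched for GTGGGNG, the core of the motif bound by EGR factors, and for ACAAAG, a SOX motif. Capitals mark the matches, and the sequences run 5′ to 3′ on the strand of the gene.
Egr2, chr10:67535249-67535498, + strand: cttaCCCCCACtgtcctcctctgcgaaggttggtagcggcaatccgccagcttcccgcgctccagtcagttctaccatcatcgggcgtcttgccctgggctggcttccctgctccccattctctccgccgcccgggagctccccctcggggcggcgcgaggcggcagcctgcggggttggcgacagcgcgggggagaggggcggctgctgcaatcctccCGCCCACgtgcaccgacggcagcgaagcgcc
Prx, chr7:27499074-27499323, + strand: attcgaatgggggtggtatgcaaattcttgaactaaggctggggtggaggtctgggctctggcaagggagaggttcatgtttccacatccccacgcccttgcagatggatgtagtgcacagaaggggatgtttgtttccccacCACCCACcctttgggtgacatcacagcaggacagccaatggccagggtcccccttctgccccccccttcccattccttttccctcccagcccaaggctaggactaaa
Mag, chr7:30914864-30915113, - strand: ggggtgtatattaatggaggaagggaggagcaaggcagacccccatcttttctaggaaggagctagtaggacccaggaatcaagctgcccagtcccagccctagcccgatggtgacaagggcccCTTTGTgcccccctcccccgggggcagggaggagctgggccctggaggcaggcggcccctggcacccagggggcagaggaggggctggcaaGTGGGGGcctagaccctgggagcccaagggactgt
Gjb1, chrX:101376126-101376375, + strand: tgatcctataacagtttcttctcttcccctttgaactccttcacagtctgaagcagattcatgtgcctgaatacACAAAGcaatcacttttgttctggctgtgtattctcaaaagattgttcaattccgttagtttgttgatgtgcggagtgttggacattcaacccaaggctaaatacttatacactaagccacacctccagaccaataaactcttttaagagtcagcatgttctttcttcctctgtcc

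Of the 5 promoters, 3 held the EGR letters. Egr2 itself had them at -246 and -31, counted from the RefSeq start of transcription to the first base of the match, Prx at -107 and Mag at -35. The SOX letters stood in 2 promoters, at -126 in Mag and at -176 in Gjb1. The Pmp22 window (chr11:63128732-63128981) held neither. The motifs do not overlap each other. Of 32851 mouse promoter windows of the same length, 28.1% held the EGR letters and 16.5% the SOX letters, so a match is frequent and is given as a description of the sequence. For Gjb1, Pmp22, Egr2 and Mag the table lists further starts, and the window shown is the one nearest to the annotated 5′ end of the gene. The RefSeq start used here and the GENCODE gene start given further on differ for some genes, so that the last 24 bases of the Egr2 window and the last 10 of the Mag window lie inside the GENCODE gene.

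Between genotypes, none of the 8 genes passed the adjusted threshold of 0.05 by edgeR's quasi-likelihood test, adjusted over all 19366 genes, of which 5 passed (0.0258%). By DESeq2, too, 0 of the 8 passed, against 23 genes overall (0.119%). All 8 log2 fold changes (Opa1+/- over WT) were positive, between 0.11 for Drp2 and 0.34 for Egr2, with a median of 0.19, while 50.1% of all tested genes had a positive value and their median was 0.00040. Several of these genes vary together across mice, as shown further on, so the shared sign is not 8 separate observations. Egr2 was the 1 gene of the 8 with an unadjusted p under 0.05, a limit that 3.51% of all genes passed in the higher direction and 3.22% in the lower.

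**Figure D1:**
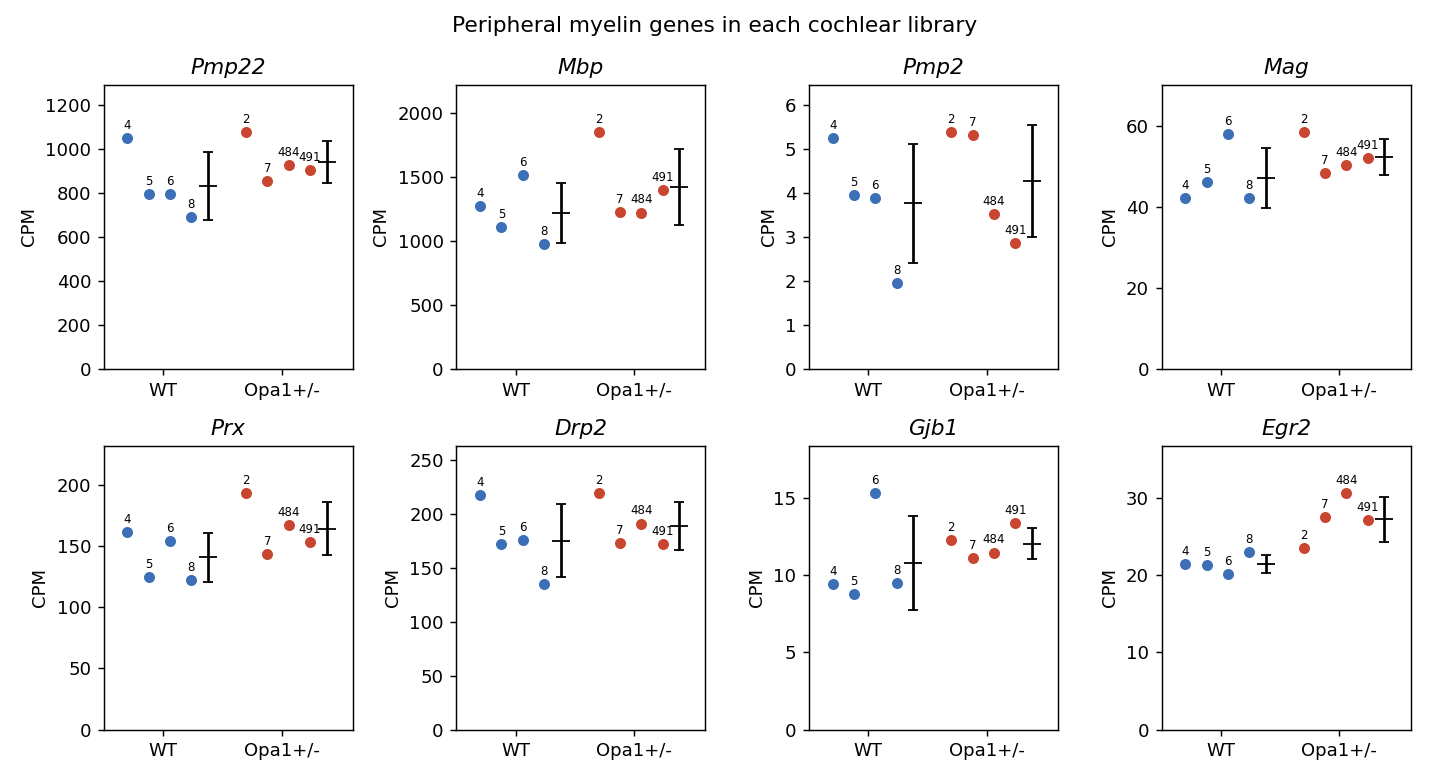
Level in CPM (y axis, from 0) of each of the 8 genes in each mouse, with WT in blue and Opa1+/- in red and the animal number above each point. Bars show the mean and SD of 4 mice. The groups overlap for every gene except Egr2, in which the WT mice lie at 20.1 to 23.0 CPM and the Opa1+/- mice at 23.5 to 30.6 CPM.

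Pmp22 codes for a tetraspan protein of compact myelin whose dosage is known to matter for peripheral nerves. It lies on chromosome 11 (GRCm38, 63128982 to 63159547, + strand, ENSMUSG00000018217.12). Its level was 1051, 794, 794 and 691 CPM in WT_4, WT_5, WT_6 and WT_8 and 1077, 857, 926 and 906 CPM in Het_2, Het_7, Het_484 and Het_491. WT_4 stood with the highest Opa1+/- mouse, and the other 3 WT mice lay below all Opa1+/- mice. On average WT mice had 833 ± 154 CPM and Opa1+/- mice 942 ± 94.9 CPM (SD, n = 4 each). The log2 fold change was 0.18 with an SE of 0.13 (95% interval -0.11 to 0.46, edgeR adjusted p = 0.807), and the exact permutation p was 0.286. Without WT_4 the log2 fold change of Pmp22 was 0.31, with an adjusted p of 0.395 by edgeR, and without WT_8 it was 0.094.

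Mbp codes for the basic proteins that bring the cytoplasmic faces of compact myelin together, in Schwann cells and oligodendrocytes alike. It lies on chromosome 18 (82475146 to 82585637, + strand, ENSMUSG00000041607.17). The WT mice had 1274, 1109, 1512 and 974 CPM and the Opa1+/- mice 1848, 1223, 1221 and 1398 CPM, in the same order of animals. Het_2 was the highest and WT_8 the lowest, and the remaining 6 mice were mixed. The means were 1217 ± 231 (SD, n = 4) and 1422 ± 295 (SD, n = 4), a log2 fold change of 0.22 with an SE of 0.17 (95% interval -0.15 to 0.60, edgeR adjusted p = 0.812). Without Het_2 the log2 fold change of Mbp was 0.076, and without WT_6 it was 0.35.

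Pmp2 codes for a fatty acid binding protein of peripheral myelin. It lies on chromosome 3 (10179851 to 10183929, - strand, ENSMUSG00000052468.7) and was the least abundant of the 8 genes. Counts were 92, 81, 65 and 40 in the WT mice and 91, 106, 57 and 45 in the Opa1+/- mice, which is 5.25, 3.96, 3.88 and 1.96 CPM against 5.38, 5.31, 3.53 and 2.87 CPM. The ranges of the genotypes overlapped over most of their width. The log2 fold change was 0.19 with an SE of 0.31 (95% interval -0.49 to 0.88, edgeR adjusted p = 0.920), the widest interval among the 8 genes, and it was -0.028 without WT_8. In the annotation, 1224 of the 1408 exonic bases of Pmp2 are shared with Gm37389 on the same strand, a gene with 31 to 81 counts per library, so the counts of Pmp2 depend on how such reads were assigned.

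Mag codes for a sialic acid binding adhesion protein on the inner face of the myelin sheath, next to the axon. It lies on chromosome 7 (30899176 to 30914873, - strand, ENSMUSG00000036634.15). It stood at 42.4, 46.2, 58.1 and 42.4 CPM in the WT mice and at 58.5, 48.5, 50.4 and 52.1 CPM in the Opa1+/- mice. WT_6 and Het_2 were close together at the top, and the other WT mice lay below all Opa1+/- mice. The log2 fold change was 0.15 with an SE of 0.11 (95% interval -0.094 to 0.39, edgeR adjusted p = 0.808). It was 0.26 without WT_6 and 0.094 without Het_2.

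Prx codes for periaxin, a scaffold protein of the Schwann cell membrane, and Drp2 for a dystrophin-related protein that binds periaxin and links it to the dystroglycan complex on the outer surface of the sheath. Prx lies on chromosome 7 (27499324 to 27520214, + strand, ENSMUSG00000053198.13) and Drp2 on chromosome X (134404551 to 134456573, + strand, ENSMUSG00000000223.13). Prx was measured at 162, 124, 155 and 122 CPM in the WT mice and at 193, 143, 167 and 153 CPM in the Opa1+/- mice. Drp2 was measured at 218, 173, 176 and 135 CPM in the WT mice and at 220, 173, 191 and 172 CPM in the Opa1+/- mice. For both genes, WT_4 was the highest WT mouse, Het_2 the highest and WT_8 the lowest of all. The log2 fold change of Prx was 0.22 with an SE of 0.12 (95% interval -0.049 to 0.50, edgeR adjusted p = 0.763), and it ran from 0.14 without Het_2 to 0.30 without WT_4. That of Drp2 was 0.11 with an SE of 0.14 (95% interval -0.20 to 0.42, edgeR adjusted p = 0.902), and it was -0.0011 without WT_8. A gene on the opposite strand, Gm15541, shares 300 exonic bases with Prx but had only 2 to 15 counts per library.

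Gjb1 codes for connexin 32, the gap junction protein of the non-compact myelin of Schwann cells, also made by oligodendrocytes. It lies on chromosome X (101376378 to 101385629, + strand, ENSMUSG00000047797.14). The WT mice had 9.42, 8.79, 15.3 and 9.50 CPM and the Opa1+/- mice 12.2, 11.1, 11.4 and 13.3 CPM. WT_6 was above all other mice, and the other 3 WT mice were below every Opa1+/- mouse. The log2 fold change was 0.16 with an SE of 0.17 (95% interval -0.23 to 0.56, edgeR adjusted p = 0.878). Without WT_6 it was 0.38, with an adjusted p of 0.636 by edgeR, and without WT_5 it was 0.079.

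Egr2 lies on chromosome 10 (67535475 to 67542188, + strand, ENSMUSG00000037868.15). It stood at 21.4, 21.3, 20.1 and 23.0 CPM in the WT mice and at 23.5, 27.6, 30.6 and 27.2 CPM in the Opa1+/- mice. Every Opa1+/- mouse was above every WT mouse, with Het_2 and WT_8 close to each other. Among all tested genes, 4.31% had groups that did not overlap, and 1.98% did so with the Opa1+/- mice higher. The means were 21.5 ± 1.18 (SD, n = 4) and 27.2 ± 2.91 (SD, n = 4), which is 1.27-fold, with a 95% interval of 1.11 to 1.45. The log2 fold change of 0.34 (SE 0.086) had an unadjusted p of 0.00285 and an adjusted p of 0.722 by edgeR, and 0.421 by DESeq2. The exact permutation p was 0.0286, the smallest that 4 mice against 4 can give. With libraries scaled by total counts alone the groups overlapped, since the highest WT mouse then stood at 24.4 CPM and the lowest Opa1+/- mouse at 23.9 CPM. Het_484 and Het_491 have 3-digit animal numbers, which no WT mouse has, and the labels do not say what the numbers stand for. Without Het_484 and Het_491 the log2 fold change of Egr2 was 0.25, with an unadjusted p of 0.0350 by edgeR.

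**Figure D2:**
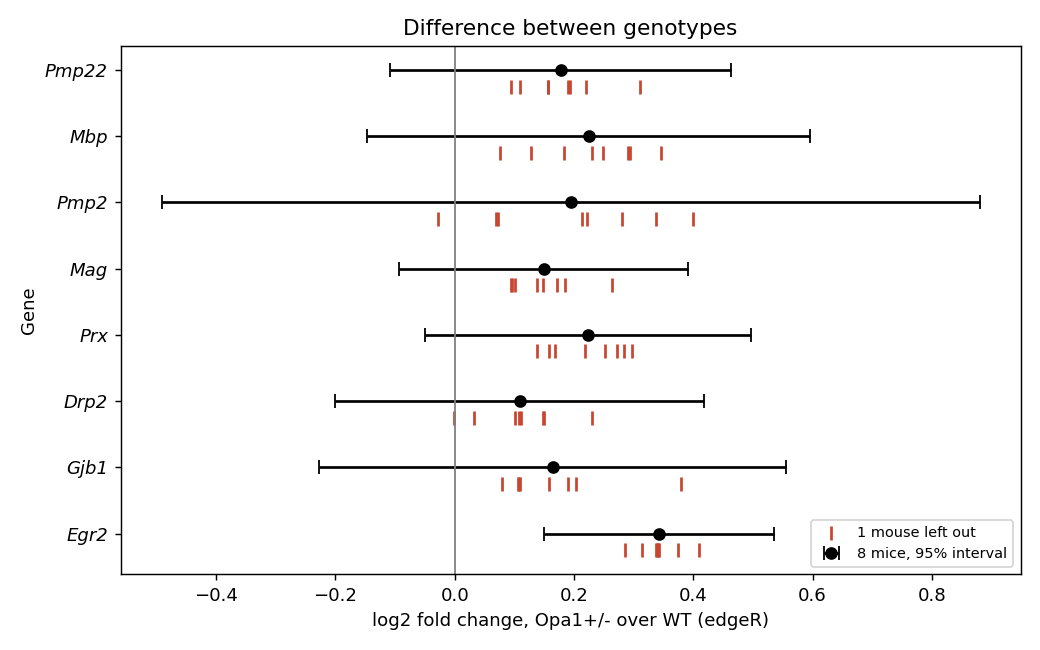
Log2 fold change of Opa1+/- over WT (x axis) for each of the 8 genes, with its 95% interval by edgeR from all 8 mice (black), and the values with 1 mouse left out in turn (red ticks). All 8 points lie above 0, the intervals of 7 genes include 0, and that of Egr2 runs from 0.15 to 0.54 before any adjustment for the number of genes.

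Other early response genes were listed after the Egr2 values were seen, since Egr2 belongs to that class outside Schwann cells too. Of 15 tested, 12 had positive log2 fold changes with a median of 0.12, and none had an edgeR p under 0.05, adjusted or not. The direction of this list rested on Het_7, without which 6 were higher and the median was -0.080. Egr1 stood at 21.3 ± 2.72 CPM in WT and 21.6 ± 4.28 CPM in Opa1+/- (SD, n = 4), a log2 fold change of 0.020. Fos had a log2 fold change of 0.31 with an unadjusted p of 0.153 by edgeR. Whether such a response has a part in the Egr2 values was not tested.

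Per kilobase of annotated exon, which is the scale on which levels of different genes can be compared, Pmp22 was the most abundant of the 8 genes and Pmp2 the least. In the WT mice Pmp22 stood at 354 ± 65.3 CPM per kb, Mbp at 144 ± 27.3, Prx at 25.2 ± 3.64 and Drp2 at 20.5 ± 3.94 (SD, n = 4). Below them came Mag at 11.6 ± 1.84, Egr2 at 6.32 ± 0.35, Gjb1 at 6.30 ± 1.78 and Pmp2 at 2.67 ± 0.96 CPM per kb. The order of neighbours held in 8 of 8 mice except for Egr2 and Gjb1, where Egr2 was higher in 6 of 8 mice. The ranges over mice of Egr2 and Gjb1 overlapped, as did those of Prx and Drp2, although Prx was above Drp2 within each mouse. The length is that of all annotated exons of a gene joined, 8469 bases for Mbp and 2354 for Pmp22, so that a gene with many alternative exons is placed lower on this scale.

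Together the 8 genes made up 0.212% to 0.349% of the counts of a library. Their summed level was 2449 ± 376 CPM in WT and 2813 ± 427 CPM in Opa1+/- (SD, n = 4). Mbp held about the same share of that sum in both genotypes, 49.6% ± 4.03 in WT and 50.3% ± 2.92 in Opa1+/- (SD, n = 4). The ratio of Mbp to Pmp22, on the CPM scale, was 1.21, 1.40, 1.90 and 1.41 in the WT mice and 1.72, 1.43, 1.32 and 1.54 in the Opa1+/- mice. It was highest in WT_6 and lowest in WT_4, so this ratio differed more among WT mice than between the genotype means of 1.48 and 1.501.

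The mice differed from one another along a direction that most of the genes shared. Het_2 had the highest level of 6 of the 8 genes (Pmp22, Mbp, Pmp2, Mag, Prx and Drp2), and WT_8 the lowest level of the same genes except Mag, in which WT_4 and WT_8 were level at the bottom. Averaged over the 7 genes other than Egr2, the log2 level relative to the mean of all mice was 0.084, -0.16, 0.11 and -0.42 in the WT mice and 0.33, 0.025, 0.023 and 0.0033 in the Opa1+/- mice. Egr2 did not follow this order, with deviations of -0.17, -0.18, -0.26 and -0.067 in the WT mice and -0.035, 0.19, 0.35 and 0.17 in the Opa1+/- mice. WT_8, at the bottom for the other genes, had the highest Egr2 level of the WT mice, and Het_2, at the top for the others, the lowest Egr2 level of the Opa1+/- mice.

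**Figure D3:**
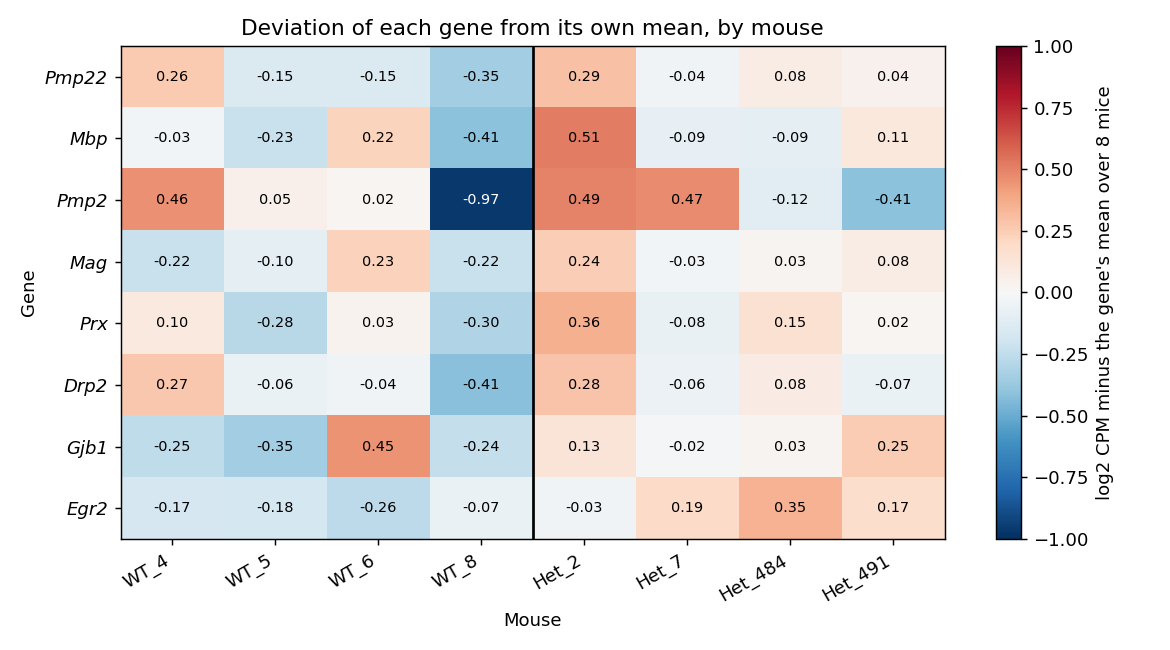
Log2 CPM of each of the 8 genes (vertical axis) in each mouse (horizontal axis) minus the mean of that gene over all 8 mice, as colour and number, with WT left and Opa1+/- right of the line. The columns of Het_2 and WT_8 are positive and negative for the 7 genes above Egr2, while Egr2 runs from -0.26 in WT_6 to 0.35 in Het_484.

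Over the 8 mice, the 21 pairs of genes without Egr2 all had a positive Pearson r of their log2 CPM, with a median of 0.68. After adjustment over all 28 pairs, 6 pairs passed 0.05 by an exact permutation test of Pearson's r, and 0 by Spearman's rho. The closest pair was Pmp22 and Drp2 (r = 0.95, rho = 0.83, exact permutation p = 0.00114 and 0.0154, adjusted p = 0.0319 and 0.0861), whose r was 0.86 without the 2 mice farthest from the median. Prx correlated with Pmp22 (r = 0.87, rho = 0.90, exact permutation p = 0.00665 and 0.00456, adjusted p = 0.0466 and 0.0639) and with Drp2 (r = 0.84, rho = 0.90, exact permutation p = 0.01 and 0.00456, adjusted p = 0.0466 and 0.0639). These 3 genes stood above their own means in WT_4 and Het_2. Without the 2 farthest mice, r was 0.66 for Prx with Pmp22 and 0.58 for Prx with Drp2.

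Mag and Gjb1 formed another close pair (r = 0.86, rho = 0.83, exact permutation p = 0.00719 and 0.0154, adjusted p = 0.0466 and 0.0861), at 0.84 without the 2 farthest mice. Mbp correlated with Mag (r = 0.85, rho = 0.83, exact permutation p = 0.00647 and 0.0154, adjusted p = 0.0466 and 0.0861) and with Prx (r = 0.86, rho = 0.69, exact permutation p = 0.00841 and 0.0694, adjusted p = 0.0466 and 0.243). Their r without the 2 farthest mice was 0.71 and 0.52. Mbp, Mag and Gjb1 were high in WT_6, where Pmp22 and Drp2 were not. Between Pmp22 and Gjb1 r was 0.13, and between Drp2 and Gjb1 0.14. The r of 0.68 between Pmp22 and Mbp rested on the extreme animals, since it was -0.030 without the 2 farthest mice.

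The 7 pairs with Egr2 had an r between -0.086 and 0.22, and none passed an unadjusted exact permutation p of 0.05. When each genotype was centred on its own mean, the median r of these 7 pairs was -0.54, against 0.60 for the 21 other pairs. The centred values were not tested, and the 7 pairs share the Egr2 values, so they are not 7 separate observations. Without the 2 farthest mice, the r of Egr2, not centred, ran from -0.28 with Pmp2 to 0.80 with Mag.

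**Figure D4:**
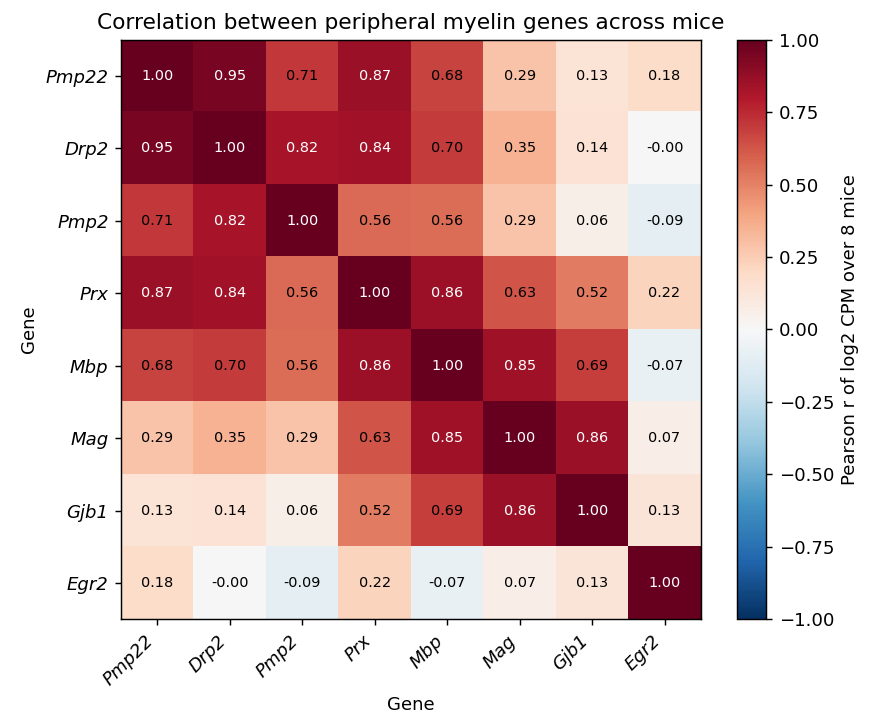
Pearson r of log2 CPM between each pair of the 8 genes over 8 mice (colour scale from -1 to 1). Pmp22, Drp2, Pmp2 and Prx have r values of 0.56 to 0.95 with each other, Mag and Gjb1 one of 0.86, and Egr2 values between -0.086 and 0.22 with all others.

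Since Mbp, Mag and Gjb1 are shared with oligodendrocytes, a list of 12 oligodendrocyte genes was read beside them. Of these 11 passed the count minimum, and Opalin did not. Mobp, a myelin protein of oligodendrocytes, had 162, 170, 249 and 131 CPM in the WT mice and 273, 170, 158 and 233 CPM in the Opa1+/- mice, and Mog 7.10 to 11.9 CPM over all mice. The summed level of the list was 467, 441, 557 and 381 CPM in the WT mice and 592, 444, 446 and 550 CPM in the Opa1+/- mice. Its genotype means were 461.5 ± 73.1 and 508 ± 74.9 CPM (SD, n = 4, exact permutation p = 0.429). Oligodendrocyte transcripts were thus present in all 8 cochlear libraries. The summed level was highest in Het_2 and lowest in WT_8, the same animals that were highest and lowest in Mbp. Mal and Mobp were the most abundant genes in it, with WT means of 205 and 178 CPM. By Mog alone WT_6 was highest at 11.9 CPM, before Het_491 at 10.2 and Het_2 at 9.58, and WT_8 was lowest at 7.10.

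The level of Mbp followed this sum across mice (r = 0.95, rho = 0.98, exact permutation p = 4.96e-05 and 0.000397, adjusted over 72 relations of the 8 genes to 9 lists or genes 0.00357 and 0.0286). The r was 0.94 without the 2 farthest mice, at least 0.93 with any 1 mouse left out, and 0.91 when Mal, which Schwann cells also make, was taken off the list. For Mag r was 0.85 and for Gjb1 0.76, with adjusted exact permutation p of 0.148 and 0.271. For Prx and Drp2 it was 0.73 and 0.59, for Pmp22 0.57, for Pmp2 0.43 and for Egr2 -0.12, with adjusted exact permutation p of 0.310 or more. Without WT_8 it was 0.28 for Pmp22, 0.23 for Drp2 and -0.10 for Pmp2, and with Mal off the list it was 0.41 for Pmp22, 0.46 for Drp2, 0.60 for Prx, 0.90 for Mag and 0.76 for Gjb1. Differences between these r values were not tested. The part of oligodendrocyte RNA in the levels of Mbp, Mag and Gjb1 was not tested.

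**Figure D5:**
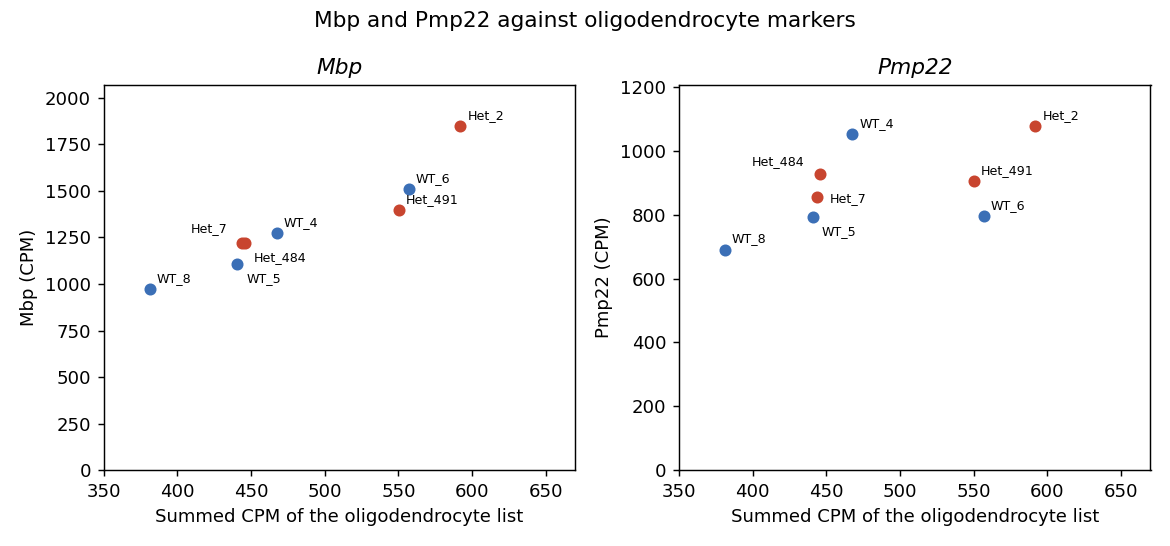
Mbp (left) and Pmp22 (right) in CPM (y axes, from 0) against the summed CPM of the oligodendrocyte list (x axis, which does not start at 0) in each of 8 mice, WT in blue and Opa1+/- in red. Mbp rises with the list from WT_8 to Het_2 (r = 0.95), and Pmp22 is more scattered (r = 0.57), with WT_4 above the others of a like sum.

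Other cell types in the dissected tissue were read in the same way. The neuron list (24 of 24 genes tested, 10 higher and 14 lower, median log2 fold change -0.043) summed to 7673 to 8891 CPM in WT and 7715 to 9120 CPM in Opa1+/-, and its r with the 8 genes ran from -0.26 for Egr2 to 0.38 for Gjb1. Red blood cell genes were higher in Opa1+/- in 16 of 16 tested (median log2 fold change 0.49), with sums of 7995 to 21892 CPM in WT and 15450 to 25450 CPM in Opa1+/- (exact permutation p = 0.171). That median was 0.94 without WT_4 and 0.25 without WT_6 or WT_8. Their r with Pmp22 was 0.77 and with Egr2 0.51, at adjusted exact permutation p of 0.271 and 0.676. Skeletal muscle genes summed to 348 to 2660 CPM in WT and 173 to 1328 CPM in Opa1+/-, and 11 of 12 were lower (median log2 fold change -0.68). That direction rested on WT_6, without which 11 of 12 were higher with a median of 0.64. Genes of neutrophils and marrow summed to 1524 CPM in WT_4, 925 in Het_484 and 1258 in Het_491, against 463 to 568 CPM in the other 5 mice, and 9 of 16 were higher and 7 lower (median log2 fold change 0.017). Single mice turned this list, with 16 of 16 higher (median 0.66) without WT_4 and 1 of 16 higher (median -0.17) without Het_491. Their r with Pmp22 was 0.54 and with Egr2 0.26 (adjusted exact permutation p = 0.655 and 0.966). Without these 3 mice the log2 fold change of Egr2 was 0.25 and the median of the 8 genes 0.30. Genes of the stria vascularis were lower in 10 of 11 tested (median log2 fold change -0.18), with sums of 918 to 1779 CPM in WT and 1145 to 1340 CPM in Opa1+/-. Their median was -0.021 without WT_6 and -0.33 without WT_4. The median log2 fold change was -0.033 for 14 bone genes, -0.047 for 12 fibroblast genes, -0.058 for 12 hair cell genes, 0.072 for 10 macrophage genes and 0.0055 for 8 satellite glia genes. Of these, the bone (0.025 without Het_491), hair cell (0.047 without WT_6), macrophage (-0.049 without Het_491) and satellite glia (-0.080 without WT_4) medians changed sign with 1 mouse left out, and so did that of the neuron list (0.027 without Het_484). None of these genes passed the adjusted threshold by edgeR or DESeq2. The part of these cell types in the values was not tested.

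The other genes of the pathway gave no gene past the adjusted threshold by edgeR or DESeq2, in 5 lists. Of 25 further genes of myelin structure, 16 were higher and 9 lower in Opa1+/- (median log2 fold change 0.046), and 1 in each direction had an unadjusted p under 0.05. The higher one was Sh3tc2, which codes for a Schwann cell protein of endosomal recycling, at 17.4 ± 1.53 against 21.2 ± 3.26 CPM (SD, n = 4, log2 fold change 0.29, unadjusted p = 0.0344 by edgeR). The lower one was Mtmr2, a phosphoinositide phosphatase, at 59.5 ± 2.00 against 54.3 ± 3.21 CPM (SD, n = 4, log2 fold change -0.13, unadjusted p = 0.0480 by edgeR), followed by Dlg1, a scaffold protein, at -0.11. Prx followed the sum of this list (r = 0.95, rho = 0.86, exact permutation p = 0.000744 and 0.0107, adjusted p = 0.0268 and 0.193), as did Mbp (r = 0.92, rho = 0.83, exact permutation p = 0.00129 and 0.0154, adjusted p = 0.0310 and 0.221). Without the 2 farthest mice these r values were 0.87 and 0.86.

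Among 20 regulators of Schwann cells, 9 were higher and 11 lower, with a median log2 fold change of -0.0028 and none with an unadjusted p under 0.05. Sox10, the partner of Egr2 in activating myelin genes, had 80.4, 97.4, 107 and 82.7 CPM in the WT mice and 109, 94.4, 111 and 102 CPM in the Opa1+/- mice, a log2 fold change of 0.18 (edgeR adjusted p = 0.763). The groups overlapped. Its r with Mag was 0.88 (rho = 0.81, exact permutation p = 0.00645 and 0.0218, adjusted p = 0.116 and 0.224), and with Egr2 0.35. Nab1, a cofactor that binds Egr2, had a log2 fold change of -0.082 (edgeR adjusted p = 0.828). Nfatc4, a calcineurin-dependent factor, stood at 0.17 and Tead1, a partner of YAP, at -0.15 (log2 fold changes).

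Of 24 genes of axon and basal lamina signalling to Schwann cells, 9 were higher and 15 lower (median log2 fold change -0.021), and 2, both higher, had an unadjusted p under 0.05 by edgeR. Lgi4, a secreted ligand needed for peripheral myelination, had 35.6, 37.8, 23.8 and 36.1 CPM in the WT mice and 55.0, 42.9, 43.9 and 39.1 CPM in the Opa1+/- mice, with no overlap. Its log2 fold change of 0.44 (SE 0.15) had an unadjusted p of 0.0166 and an adjusted p of 0.722 by edgeR. Itgb4, the integrin subunit that binds laminin on the outer surface, had a log2 fold change of 0.28 (unadjusted p = 0.0377 by edgeR). On the lower side, Sgcb, a sarcoglycan, stood at -0.097 and Igf1r, a growth factor receptor, at -0.11, both with an unadjusted p over 0.1 by edgeR. Of 24 genes of sterol and lipid synthesis, 9 were higher and 15 lower (median log2 fold change -0.030). The only 1 with an unadjusted p under 0.05 was Elovl1, a fatty acid elongase, at a log2 fold change of 0.21 (unadjusted p = 0.0190 by edgeR). Gal3st1, the sulfotransferase that makes sulfatide, stood at 0.21, and on the lower side Sc5d and Insig1, of sterol synthesis and its control, each stood at -0.15 (log2 fold changes, unadjusted p over 0.1 by edgeR). Of 18 genes of non-myelinating or repair Schwann cells, 13 were higher and 5 lower (median log2 fold change 0.051), and 3, all higher, had an unadjusted p under 0.05 by edgeR. Among these 3 were Foxd3, a neural crest factor, at a log2 fold change of 0.40 (unadjusted p = 0.0249 by edgeR) and Plekha4 at 0.25 (unadjusted p = 0.0393 by edgeR). On the lower side, the cadherin gene Cdh2 stood at -0.070 and Gdnf, a neurotrophic factor, at -0.22, with an unadjusted p over 0.3 by edgeR. With 1 mouse left out, the median of myelin structure stayed positive (0.022 to 0.076), while those of the other 4 pathway lists crossed 0, from -0.032 to 0.041 for regulators, -0.053 to 0.028 for signalling, -0.13 to 0.014 for lipid synthesis and -0.026 to 0.12 for non-myelinating or repair cells.

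The genes whose pattern over the 8 mice was most like the mean log2 level of the 8 genes were sought among 17958 genes with a mean of at least 1 CPM. Among the highest r values were those of Tmem205 (0.96), Ecscr (0.96), Mras (0.96), Fpgs (0.95), Gm42735 (0.95), Acaa1b (0.94), Mvb12b (0.93), Tsen54 (0.93) and Grap (0.92). Over all genes compared, the median r was 0.0044 and 123 genes had an r over 0.8. With 8 mice and 17958 genes, r values of this size also arise by chance. No test was run on them, so the named genes are a description only.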

How the data were processed

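RNA from the cochleae of 4 WT and 4 Opa1+/- mice was sequenced by the authors as CORALL libraries in paired reads of 80 nucleotides, with molecular identifiers, and mapped to GRCm38 (mm10) with STAR; FastQC is also named in the submitters' processing notes. The authors deposited 1 table of raw counts per mouse, whole numbers per gene symbol, not normalized. The counting program and the use of strand are not given in the sources used here. The mouse is the replicate.

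Entries without a gene name (15, 0.112% to 0.124% of the counts) were left out, which left 47628. Genes with a mean normalized count over 10 (19366) were tested with edgeR 4.0.16, the quasi-likelihood test, TMM and Benjamini-Hochberg adjustment. DESeq2 1.42.0, limma 3.58.1, other scalings and filters, and mice left out were the alternatives. Single values were compared by exact two-sided permutation over 70 arrangements, and correlations over 8 mice by exact two-sided permutation. Positions are from GENCODE vM21. The fit was tested on simulated data. R 4.3.3, Python 3.11.15, numpy 2.4.6, scipy 1.17.1, pandas 2.3.3 and matplotlib 3.10.9 were used. The 8 genes and the lists were chosen with earlier results of these data known, and the early response list after the values were seen. Named outside the 8 are any list gene past the adjusted threshold, the 2 genes of lowest p in each direction of a pathway list, up to 3 abundant genes of a marker list and the 10 most like genes. Egr1, Fos, Mog, Opalin, Opa1 and the sex-linked genes are named as checks outside this rule. A gene that this rule names is not reported here.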

Additional observations from a re-analysis of the deposited data

Results flagged for a closer look

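The level of Gjb1 in WT_6 stood apart from the other 3 WT mice. It was 15.3 CPM, against 8.79 to 9.50 CPM in WT_4, WT_5 and WT_8, and the gap to the nearest of them was 0.891 of the range of the group, above Dixon's 95% critical value for 4 samples. It was the 1 of 16 groups tested (8 genes in 2 genotypes) that passed, and chance alone passes about 1 in 20. Among the WT mice, WT_6 was also the highest in the summed CPM of oligodendrocyte (557), skeletal muscle (2660), stria (1779), hair cell (318), bone (3822), fibroblast (5852), satellite glia (3451) and myelin structure genes (4271), and the lowest in those of lipid synthesis (2352) and of non-myelinating or repair Schwann cells (1042). The part of these cell types in the Gjb1 value was not tested.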

How the results depend on the processing

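No analysis paired by litter was possible because the labels do not give the litter of a mouse. None of the 8 genes passed the adjusted threshold under any of 19 alternatives, of which 18 were listed at the outset and 1, leaving out WT_4 together with Het_484 and Het_491, after seeing the data. Over all genes, the 5 calls became 12 with no filter on low counts, 23 with DESeq2, 10 with limma voom and sample quality weights and 10 with robust estimation. They became 0 to 9 with 1 mouse left out (0 without Het_2, 9 without WT_4), 0 without Het_484 and Het_491, and 0 with WT_4 left out as well. The median log2 fold change of the 8 genes was 0.10 to 0.27 with 1 mouse left out (0.10 without WT_8 or Het_2, 0.27 without WT_4 or WT_6), 0.29 with limma voom and 0.30 without WT_4, Het_484 and Het_491. Of 152 values, 150 kept the positive sign, and Pmp2 (-0.028) and Drp2 (-0.0011) changed it without WT_8; the cause was not tested. With 1 mouse left out, Pmp2 ranged from -0.028 to 0.40 and Drp2 from -0.0011 to 0.23. An unadjusted p under 0.05 came up in 2 of 19 alternatives each for Pmp22, Mag and Prx, in 1 for Gjb1 and in 0 for Mbp, Pmp2 and Drp2. Over all alternatives Egr2 ranged from 0.25 to 0.41 and had an unadjusted p under 0.05 in 18 of 19. The exception was without WT_4, Het_484 and Het_491, where the unadjusted p of Egr2 was 0.0579 by edgeR's model fitted across all genes. Its adjusted p ranged from 0.388 to 0.9996. Pmp2 had 40 to 106 counts per library, so that counting error adds to the spread between mice.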
